A study of Mus musculus with 8 samples.

Results

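Genes induced by interferons were examined in cultured primary mouse hepatocytes of p16-/- (knockout) and p16+/+ (wild type) littermates. The list holds 39 genes chosen by name, from regulators of the interferon response to antiviral effectors, immunity-related GTPases and genes of antigen presentation. Of these, 35 had an array row annotated to that gene alone, out of 22180 such genes, and 30 passed a filter on dim genes, out of 15380. Ifi44, Oas1a, Gbp2 and Cd74 had no row of their own and were not analysed here. Both groups were cultured alike. Cells attached for 16 h in medium that held 25 nM dexamethasone, 100 nM insulin and 10% serum, then spent 8 h in medium with 1 mM glucose and 0.1% albumin, and RNA was taken at 24 h. No interferon or other immune stimulus is named for either group. The labels do not state the extent of the p16 deletion, the strain background or the animals' age. Each genotype had 4 samples with 1 array each. The labels call them biological replicates without saying whether each came from its own animal, so the tests rest on the spread among these samples, which may be technical.

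Type I interferons bind the receptor of Ifnar1 and Ifnar2 and act through a complex that holds STAT2 and IRF9 and binds the interferon-stimulated response element (ISRE) of antiviral genes. Interferon gamma binds the receptor of Ifngr1 and Ifngr2 and acts on the gamma-activated site (GAS) of its target genes, and through IRF1 and CIITA it induces GTPases against intracellular parasites and the genes of antigen presentation. In the liver, hepatocytes respond to both kinds of interferon, while MHC class II is known chiefly from Kupffer cells, dendritic cells and B cells.

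All values below are RMA-normalised log2 expression, so a change of 1 is a doubling, and changes are knockout minus wild type. A gene was called where limma gave a Benjamini-Hochberg adjusted p under 0.05 over all 15380 genes. Knockout replicate 4 stood apart on the second principal component, at -25.2 against -8.91 to 14.6 for the other arrays, so results are also given without it. Cdkn2a, the gene of p16, was at 4.28, 4.66, 4.27 and 4.91 in knockout arrays and at 4.16, 4.79, 4.48 and 4.68 in wild type arrays. These groups overlapped, and which part of the gene its row measures is not known here, so the row does not check the genotype. Hepatocyte markers were present in both genotypes but not equally: 8 of 12 rose and none fell, with a median change of 0.62 and list means of 10.6 to 10.7 in knockout and 9.71 to 9.91 in wild type arrays. Alb differed little (change 0.03), while Arg1 rose by 2.69 (adjusted p = 5.01e-06) and Asgr1 by 1.39 (adjusted p = 7.97e-06).

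Interferon-induced genes did not move as a block. Of the 30 tested members, 4 rose in the knockout, namely H2-Ab1, Iigp1, Mx2 and Oasl1, 26 were not called and none was called lower (limma). The 4 calls are 13.3% of the members, while 13.8% of all genes tested were called, 7.02% higher and 6.76% lower in the knockout. The members' share of calls was therefore close to that of all genes. Mx2, Oasl2 and Gbp7 passed the filter through 1 genotype only, their mean in the other lying below it. Without these 3, 3 of 27 members were called (11.1%), against 13.8% of all genes treated alike. At an unadjusted p under 0.05 there were 11 of the 30 members, 6 higher and 5 lower. Of all genes tested 26.9% reached that level, 1874 higher and 2263 lower. The median change was 0.10 over the members and -0.02 over all genes tested, and the members ranged from -0.53 to 0.75. The groups did not overlap for 7 members (23.3%), 6 of them higher and 1 lower in the knockout, against 20.2% of all genes tested. Without knockout replicate 4 the same 4 members were called and Stat2 was added.

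**Figure D1:**
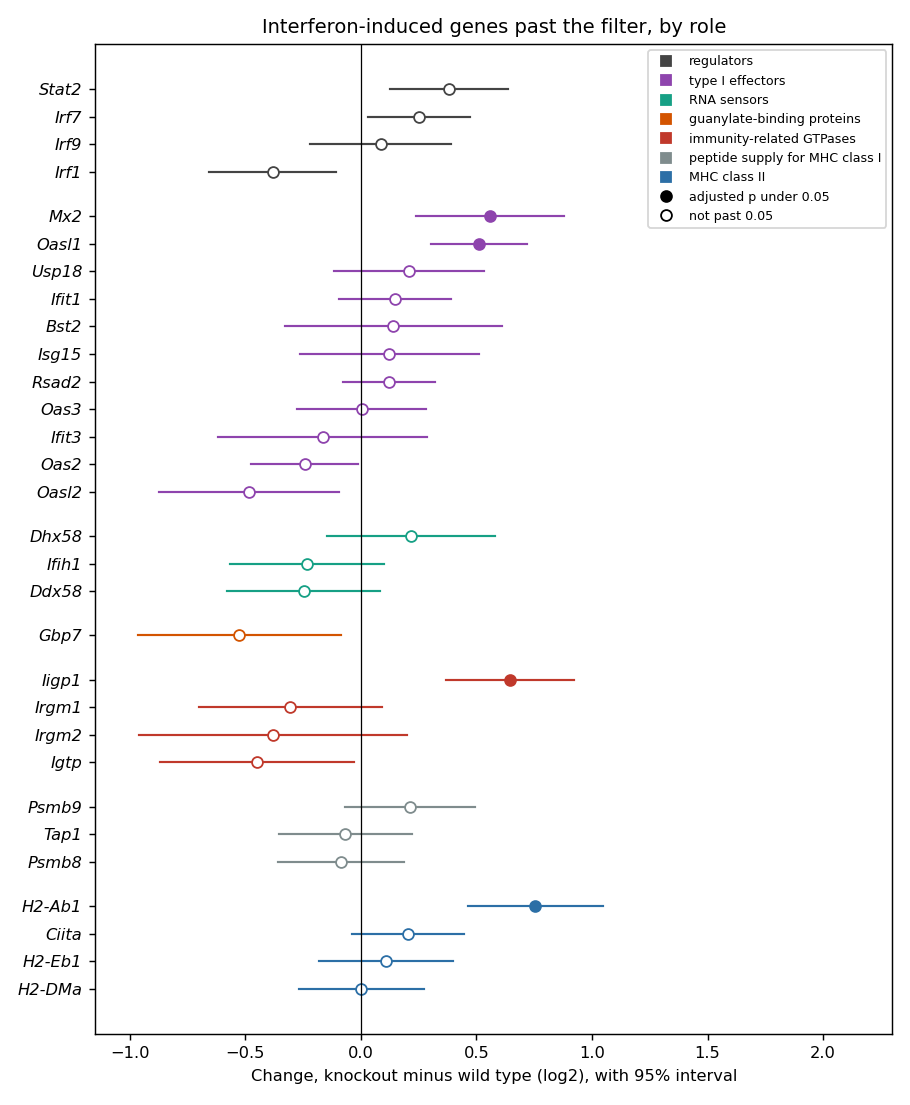
Log2 change of each tested member, knockout minus wild type (x axis), with its 95% interval (lines), for the 30 genes grouped by role (colours); filled circles passed an adjusted p of 0.05. H2-Ab1 (0.75), Iigp1 (0.65), Mx2 (0.56) and Oasl1 (0.51) are the filled ones, and the other genes lie on both sides of 0.

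The promoters of part of the members show letters of the elements by which the family is usually recognised. The members were chosen as known interferon-induced genes, so such matches are no independent evidence on the list. RefSeq promoter windows (GRCm38.p6, 250 bases before to 50 after the start) were found for 26 of the 35 members, in 31 windows. The members without a matched entry were Mx1, Mx2, Oas2, Usp18, Dhx58, Gbp6, Iigp1, Ciita and H2-Ab1. The ISRE was searched as GAAANNGAAA, the GAS element as TTCNNNGAA and the Y box, a motif of MHC class II promoters, as CTGATTGG, on both strands and with matches allowed to overlap. The ISRE letters occurred in 14 of the 31 windows (45.2%), against 3.44% of all 32851 windows. The GAS letters occurred in 7 (22.6%, against 8.30% of all windows) and the Y box letters in 4 (12.9%, against 4.10%). The 4 Y box windows were those of H2-Aa, H2-Eb1, Psmb9 and Tap1. A match describes the letters only and was not tested as a binding site.

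The 150 bases before the start are shown for 5 members whose values are compared below, with matches in capitals. Isg15 (chr4:156200819-156200968, minus strand) shows 3 overlapping ISRE matches. Oasl1 (chr5:114923090-114923239, plus strand), which rose, has none of the 3 motifs in its whole window. Igtp (chr11:58199406-58199555, plus strand) and Irgm2 (chr11:58214827-58214976, plus strand) carry a GAS match followed by an ISRE match. H2-Eb1 (chr17:34305717-34305866, plus strand), a class II gene near H2-Ab1 that was not called, carries a Y box match.
Isg15: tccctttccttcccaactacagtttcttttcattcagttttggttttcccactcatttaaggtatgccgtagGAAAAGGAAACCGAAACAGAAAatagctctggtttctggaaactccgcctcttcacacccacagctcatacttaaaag
Oasl1: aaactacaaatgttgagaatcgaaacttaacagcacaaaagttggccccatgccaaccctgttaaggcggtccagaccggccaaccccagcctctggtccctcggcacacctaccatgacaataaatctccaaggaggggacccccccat
Igtp: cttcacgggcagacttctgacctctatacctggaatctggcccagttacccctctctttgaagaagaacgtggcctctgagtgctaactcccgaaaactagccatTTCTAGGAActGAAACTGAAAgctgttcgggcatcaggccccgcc
Irgm2: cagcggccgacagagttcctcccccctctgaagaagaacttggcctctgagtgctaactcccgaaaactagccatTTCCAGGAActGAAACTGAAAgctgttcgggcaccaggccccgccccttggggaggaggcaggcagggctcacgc
H2-Eb1: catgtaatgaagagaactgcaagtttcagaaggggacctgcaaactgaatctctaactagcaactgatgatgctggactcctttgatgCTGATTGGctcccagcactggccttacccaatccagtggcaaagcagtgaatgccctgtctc
Igtp and Irgm2 are related genes, and the 150 bases shown for them share an unbroken run of 38 bases. Shifted by 30 bases, these stretches are identical at 103 of 120 positions (85.8%).

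Among the regulators no gene was called. Stat2, a subunit of the type I transcription complex, was at 6.84, 6.87, 7.01 and 6.47 in knockout arrays and at 6.44, 6.42, 6.46 and 6.36 in wild type arrays. All 4 knockout values lay above the wild type ones, replicate 4 only just. Its change of 0.38 (SE 0.12) fell short of the threshold (limma, adjusted p = 0.0503) and passed it without knockout replicate 4 (0.49, adjusted p = 0.00386). Irf1, the factor through which gamma interferon induces many of its later targets, was at 4.98, 4.56, 4.97 and 4.90 in knockout arrays and at 5.08, 5.42, 5.35 and 5.08 in wild type arrays. Every knockout value was the lower, with a change of -0.38 (SE 0.12, adjusted p = 0.0675). Irf7, which amplifies type I interferon production, had 5.48 to 5.86 in knockout arrays and 5.32 to 5.45 in wild type arrays, without overlap but with an adjusted p of 0.133. Irf9, the DNA-binding partner of STAT2, had a change of 0.09 with a 95% interval of -0.22 to 0.39.

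Of the antiviral effectors typical of type I interferon, 11 of 15 were tested, 2 rose and none fell (limma). That is 18.2% called, against 13.8% of all genes tested. Of the 2 that rose, Mx2 passed the filter only through its knockout arrays, so the higher share is uncertain. An unadjusted p under 0.05 was found for 4 of the 11, and for 26.9% of all genes tested. With so few genes no difference from these shares was tested. Oasl1, an inactive relative of the oligoadenylate synthetases known in mice to restrain translation of Irf7, was at 8.26, 8.43, 8.29 and 8.32 in knockout arrays and at 7.82, 7.63, 7.96 and 7.85 in wild type arrays. The knockout arrays were all higher and varied little. Its rise was 1.43-fold (log2 change 0.51, SE 0.09, adjusted p = 0.00407). Oasl2, the related gene that keeps synthetase activity, was at 3.55, 3.60, 2.91 and 3.10 in knockout arrays and at 3.68, 3.92, 4.05 and 3.44 in wild type arrays. Here the groups overlapped and the change pointed the other way, at -0.48 (SE 0.18, adjusted p = 0.100). Its knockout mean of 3.29 lies below the 3.32 used as the filter, so Oasl2 passed only through its wild type values and the size of its change is uncertain, as is any comparison that uses it. The changes of Oasl1 and Oasl2 differed by 1.00 (SE 0.22). That difference was tested over the arrays by a two-sided exact permutation test (p = 0.0286, the smallest that 4 against 4 arrays allow). It was 1 of 6 comparisons of a called gene with a relative, chosen after their values were seen (Benjamini-Hochberg adjusted p = 0.0343). The adjustment does not cover that choice, so these p-values are no independent evidence of a difference.

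Mx2, a dynamin-like GTPase with antiviral activity, was at 3.89, 3.63, 3.51 and 3.65 in knockout arrays and at 2.84, 3.47, 2.90 and 3.24 in wild type arrays. The knockout arrays were higher, the lowest of them by a small margin. The change was 0.56 (SE 0.15, adjusted p = 0.0261). Dim genes were filtered at 3.32 and wild type arrays averaged 3.11, so Mx2 passed the filter only through its knockout values and its size is uncertain. Its call ended when any 1 of knockout replicates 1 and 2 and wild type replicates 1 and 3 was left out, with adjusted p-values of 0.0584 to 0.0798.

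The best known markers of a type I response were not called. Isg15, the ubiquitin-like modifier, was at 3.86, 3.73, 3.58 and 4.08 in knockout arrays and at 4.03, 3.50, 3.98 and 3.25 in wild type arrays, with groups fully interleaved (change 0.12, 95% interval -0.26 to 0.51). Ifit1, which binds viral RNA ends, had a change of 0.15 (-0.09 to 0.39) and Ifit3, its partner, one of -0.16 (-0.62 to 0.29). Rsad2, which encodes viperin, had one of 0.12 (-0.08 to 0.32). The intervals of these 4 genes leave out a rise of 1.5-fold in the array values. Isg15 and Ifit1 averaged 3.75 and 4.00 over all arrays, not far above the filter at 3.32, so the sizes of their changes are uncertain. The synthetase genes Oas2 and Oas3 had changes of -0.24 (-0.47 to -0.01, adjusted p = 0.167) and 0.0033 (-0.27 to 0.28). Usp18, the protease that removes ISG15 and damps the receptor, had one of 0.21 (-0.12 to 0.53), and Bst2, which encodes tetherin, one of 0.14 (-0.33 to 0.61). Bst2 varied widely within both groups, from 7.58 to 8.45 in knockout arrays and from 7.50 to 8.41 in wild type arrays. Ifit2 (2.63 to 3.16 in knockout and 2.73 to 3.19 in wild type arrays) and Mx1 (1.85 to 2.71 and 1.87 to 2.62) stayed below the filter in both groups.

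None of the 3 RNA sensor genes was called, and none had an unadjusted p under 0.05. Ddx58, which encodes RIG-I, had a change of -0.25 (-0.58 to 0.08), Ifih1, which encodes MDA5, one of -0.23 (-0.57 to 0.10), and their regulator Dhx58, which encodes LGP2, one of 0.22 (-0.15 to 0.58). Knockout replicate 1 had the highest value of its group for each of the 3 genes, as did wild type replicate 1.

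The immunity-related GTPases, which attack the vacuoles of intracellular parasites in mouse cells, split. Iigp1, an effector of the family, rose, and was at 4.77, 4.69, 4.85 and 4.90 in knockout arrays against 4.47, 4.23, 3.86 and 4.08 in wild type arrays. All knockout values were higher, and they were the more uniform. The rise was 1.56-fold (log2 change 0.65, SE 0.13, adjusted p = 0.00579). Its regulators Igtp, Irgm1 and Irgm2, which keep the effectors inactive on the cell's own membranes, had changes of -0.45 (SE 0.19, adjusted p = 0.156), -0.30 (SE 0.18, adjusted p = 0.321) and -0.38 (SE 0.26, adjusted p = 0.408).

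Igtp was at 4.79, 4.76, 4.56 and 4.15 in knockout arrays and at 5.34, 5.0, 5.22 and 4.50 in wild type arrays. Replicate 4 was the lowest array of its group in both genotypes, for Igtp and equally for Irgm1 and Irgm2. Igtp was called lower without wild type replicate 4 (-0.62, adjusted p = 0.0336). The mean of the 3 regulators was 5.11, 4.79, 4.99 and 4.35 in knockout arrays and 5.50, 5.18, 5.36 and 4.70 in wild type arrays. The 2 ranges overlapped, while the knockout mean was the lower at each replicate number. With the replicate number as a block, limma adjusted p-values were 0.0232 for Igtp, 0.0817 for Irgm1 and 0.128 for Irgm2. Whether the numbers pair the samples is not known. The change of Iigp1 exceeded that of Igtp by 1.10 (SE 0.27) and that of Irgm1 by 0.95 (SE 0.24), each with an exact permutation p of 0.0286 (adjusted p = 0.0343). It exceeded that of Irgm2 by 1.02 (SE 0.36, exact permutation p = 0.0571, adjusted p = 0.0571). These pairs were chosen after their values were seen, which the adjustment does not cover, so the p-values are no independent evidence. Cross-hybridisation between these related genes was not tested.

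**Figure D2:**
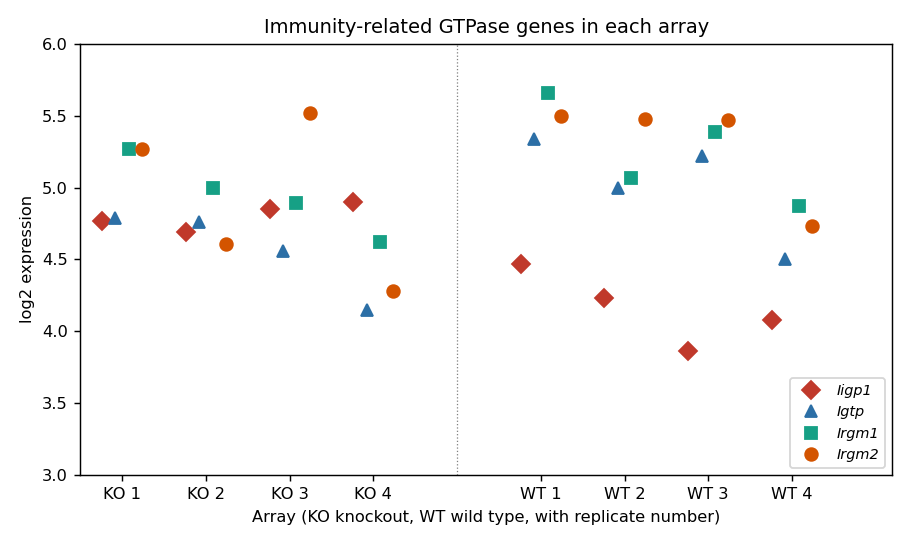
Log2 expression (y axis) of Iigp1, Igtp, Irgm1 and Irgm2 in each of the 8 arrays (x axis), with knockout arrays left and wild type arrays right of the dotted line; 1 symbol is 1 array's value. Iigp1 sits at 4.69 to 4.90 in knockout arrays and at 3.86 to 4.47 in wild type arrays, and the other 3 genes are lowest in replicate 4 of each group.

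The guanylate-binding proteins, larger GTPases that lyse such vacuoles, were mostly too dim to test. Gbp7 was at 2.85, 3.39, 3.46 and 3.38 in knockout arrays and at 4.34, 3.52, 3.89 and 3.44 in wild type arrays. The groups overlapped and the change was -0.53 (SE 0.20, adjusted p = 0.112), with a knockout mean of 3.27 that lies below the filter. Gbp3 averaged 3.09 ± 0.17 in knockout and 3.17 ± 0.34 in wild type arrays (SD, n = 4 each) and Gbp6 2.73 ± 0.58 in knockout and 2.38 ± 0.38 in wild type arrays. Neither passed the filter. With no filter, the 5 dim members had adjusted p-values of 0.561 to 0.949.

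MHC class II was represented by H2-Ab1 alone among the calls. H2-Ab1, the beta chain of the I-A molecule, was at 7.28, 7.55, 7.60 and 7.55 in knockout arrays and at 6.48, 6.96, 6.55 and 6.97 in wild type arrays. Every knockout array was higher than every wild type array. Its rise of 1.69-fold (log2 change 0.75, SE 0.13, adjusted p = 0.00316) was the largest of the members tested. H2-Aa, the alpha chain with which it pairs, was at 2.66, 2.59, 2.69 and 2.80 in knockout arrays and at 2.99, 2.62, 2.60 and 2.79 in wild type arrays, below the filter in both. H2-Eb1, the beta chain of I-E, was at 5.28, 5.08, 5.04 and 5.40 in knockout arrays and at 4.86, 5.28, 4.92 and 5.30 in wild type arrays. Its groups overlapped (change 0.11, 95% interval -0.18 to 0.40). The changes of H2-Ab1 and H2-Eb1 differed by 0.65 (SE 0.13, exact permutation p = 0.0286, adjusted p = 0.0343). This pair was chosen after its values were seen, which the adjustment does not cover, so the p-values are no independent evidence. Ciita, the master regulator of class II transcription, had a change of 0.20 (-0.04 to 0.44, adjusted p = 0.269). H2-DMa, which helps load peptides, had one of 0.0026 (-0.27 to 0.27).

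RefSeq places H2-Ab1 in a run of 11 measured genes from H2-DMa to H2-Eb1, and it was the 1 gene called among the 8 of them tested. That share of 12.5% is close to the 13.8% of all genes tested, so the count does not set the run apart. The peptide transporter gene Tap1 and the immunoproteasome genes Psmb8 and Psmb9, which supply peptides to MHC class I, lie in this run. They had changes of -0.07 (-0.35 to 0.22), -0.09 (-0.36 to 0.19) and 0.21 (-0.07 to 0.50). Tap2, partner of Tap1, had a change of -0.0030 and H2-Ob, a regulator of peptide loading, one of -0.16 (adjusted p = 0.312). H2-DMb1 and H2-DMb2 were below the filter.

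**Figure D3:**
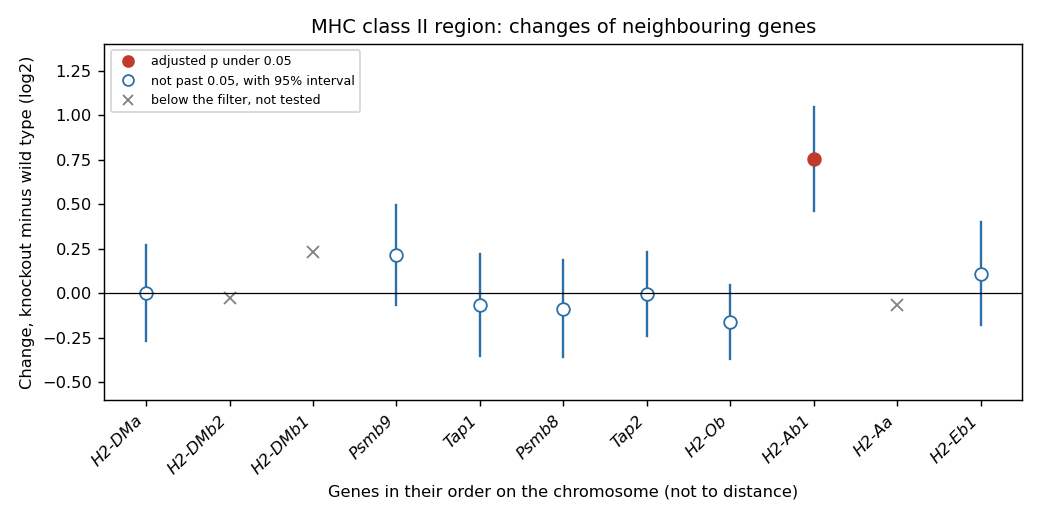
Log2 change, knockout minus wild type (y axis), of the 11 measured genes from H2-DMa to H2-Eb1 in chromosomal order (x axis, not to distance); circles carry 95% intervals and crosses are genes below the filter. H2-Ab1 (0.75) is the 1 filled circle, and the intervals of the 7 others tested include 0.

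MHC class II and gamma-type GTPases can come from immune cells in a hepatocyte culture, whose markers were therefore read on the same arrays. In bulk RNA, fewer cells of a type and less RNA per cell cannot be told apart. Of 17 tested markers of Kupffer cells and macrophages, 13 fell and 1 rose, and the mean of the 19 markers with a row ran from 4.43 to 4.50 in knockout and from 5.16 to 5.24 in wild type arrays. Ctss fell by 1.37 (adjusted p = 2.26e-05), and Cd68 rose by 0.58 (adjusted p = 0.0131). Dendritic cell markers ran from 4.08 to 4.19 in knockout and from 3.90 to 4.10 in wild type arrays, and 1 of 6 tested, Cd209a, rose (0.47, adjusted p = 0.0173). B cell markers ran from 3.16 to 3.35 in knockout and from 3.21 to 3.30 in wild type arrays, with none of 4 tested called or at an unadjusted p under 0.05 (limma), and Cd79a, Ms4a1, Cd22, Cr2 and Fcer2a were below the filter. Of 16 sinusoidal endothelial markers 15 fell, with means of 4.54 to 4.76 in knockout and 5.67 to 5.86 in wild type arrays. Hepatocyte markers were higher, as given above. The part of these shifts in the members' changes was not tested.

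**Figure D4:**
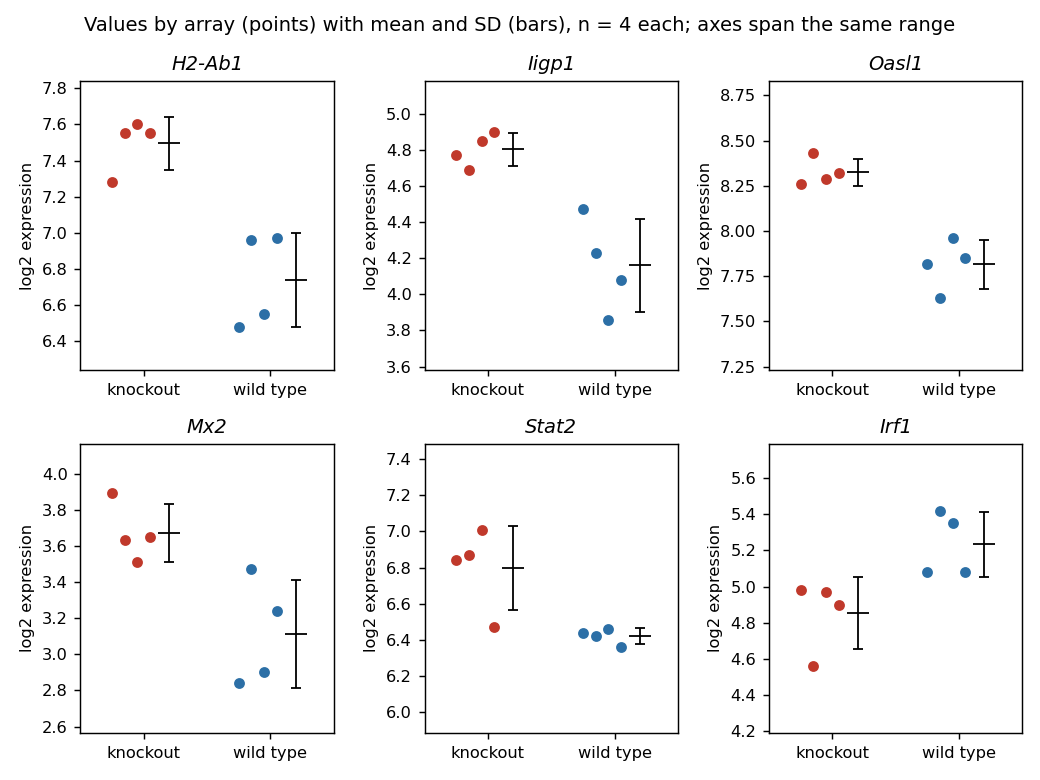
Log2 expression (y axis) in knockout and wild type arrays (x axis) of the 4 called members and of Stat2 and Irf1; points are arrays, bars the mean and SD (n = 4 each), and all panels span the same range. The groups do not overlap in any of the 6 panels, and Irf1 is the 1 gene lower in the knockout.

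Type I genes and gamma-type genes were then set side by side, without a test because the genes were chosen by name. Of the type I genes (Ifit, Oas, Oasl and Mx) 7 of 10 were tested, 2 rose (28.6%), none fell and the median change was 0.0033. Of the gamma-type genes (Gbp, immunity-related GTPases and H2 class II) 8 of 12 were tested, 2 rose (25%), none fell and the median change was -0.15. Over all genes tested 13.8% were called, and with so few genes in each group no difference from that share was tested. Of the 8 gamma-type changes 4 lay above 0 and 4 below, so the sign of their median is not firm. Gbp7 passed the filter only through wild type arrays, and without it 2 of 7 genes rose (28.6%), with a median of 0.0026. Mx2, 1 of the 2 type I risers, passed only through knockout arrays and Oasl2 only through wild type arrays. Without these 2, 1 of 5 type I genes rose (20%) and the median stayed at 0.0033. The order of the 2 shares therefore depends on genes near the filter. The mean of the type I genes was 4.44, 4.54, 4.50 and 4.55 in knockout arrays and 4.39, 4.56, 4.41 and 4.47 in wild type arrays. That of the gamma-type genes was 4.98, 4.93, 5.0 and 4.87 in knockout arrays and 5.11, 4.98, 4.97 and 4.80 in wild type arrays. Genotypes overlapped for both groups of genes, and each group held a called gene beside relatives with changes of the other sign. Within the gamma-type genes, the 5 tested GTPases had a median of -0.38 (-0.34 without Gbp7), with Iigp1 the 1 gene above 0, while the 3 tested H2 genes lay between 0.0026 and 0.75. With Isg15, Rsad2, Usp18 and Bst2 counted in, the type I median was 0.12, and with Ciita counted in, the gamma-type median was 0.0026.

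Other genes of the pathway were read from 10 lists, of which 115 genes were tested, 7 rose and 13 fell, a share of 17.4% called, against 13.8% of all genes tested (7.02% higher and 6.76% lower). Of 5 tested interferon genes none was called or had an unadjusted p under 0.05 (limma). Of 10 receptor, kinase and STAT genes 2 fell. Ifngr2, a chain of the gamma interferon receptor, was at 8.08, 7.82, 7.96 and 7.98 in knockout arrays and at 8.30, 8.31, 8.34 and 8.39 in wild type arrays (change -0.38, SE 0.09, adjusted p = 0.0144). Il10rb, a chain shared by the lambda interferon and interleukin 10 receptors, fell by 0.38 (SE 0.10, adjusted p = 0.0271). Of 5 other IRF genes Irf8, a factor of macrophages and dendritic cells, fell by 0.43 (adjusted p = 0.0179). Of 12 inhibitors Ptpn2, a phosphatase that acts on JAK1, rose by 0.36 (adjusted p = 0.0182). Of 10 genes of nucleic acid sensing Zbp1, a sensor of Z-form nucleic acids, rose by 0.47 (adjusted p = 0.0162) and the adaptor gene Myd88 fell by 0.70 (adjusted p = 0.00587).

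Of 29 other type I targets 13.8% were called, the same share as over all genes tested. Of these 2 rose, the exonuclease gene Isg20 (0.67, adjusted p = 0.00526) and the galectin gene Lgals9 (0.58, adjusted p = 0.0117), and 2 fell, Parp14 (-0.69, adjusted p = 0.0241) and Zc3hav1 (-0.38, adjusted p = 0.0200), which encodes the antiviral protein ZAP. Of 4 other tested GTPases of the gamma response none was called (limma), though 2 had an unadjusted p under 0.05, as did 26.9% of all genes tested. Of 16 other gamma targets 2 rose and 4 fell, that is 37.5% called. Cxcl9, a chemokine that attracts T cells, stood out and was at 9.87, 9.70, 9.60 and 10.03 in knockout arrays and at 7.30, 7.44, 7.47 and 7.68 in wild type arrays. The groups lay far apart, with a rise of 5.02-fold (log2 change 2.33, SE 0.12, adjusted p = 1.32e-06). Cxcl10, a relative and chromosomal neighbour that binds the same receptor, had a change of -0.08 (adjusted p = 0.830). The changes of Cxcl9 and Cxcl10 differed by 2.41 (SE 0.31, exact permutation p = 0.0286, adjusted p = 0.0343). This pair was chosen after its values were seen, which the adjustment does not cover, so the p-values are no independent evidence. The other riser was Gch1 (0.28, adjusted p = 0.0474). Ccl5 fell by 0.77, the adhesion gene Vcam1 by 0.92, Wars by 0.69 and Cd274, which encodes PD-L1, by 0.59, with adjusted p-values of 0.00122 to 0.0133.

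Among 13 further genes of MHC class I and its peptide supply, H2-T23, a nonclassical class I gene, rose by 0.48 (adjusted p = 0.0263) and the others were not called. Among 11 further genes of the class II pathway none rose and 3 fell, that is 27.3% called, and with so few genes no difference from the 13.8% of all genes was tested. Ifi30, a thiol reductase of antigen processing, fell by 0.47 (adjusted p = 0.0177), the lysosomal protease gene Lgmn by 0.34 (adjusted p = 0.0213) and Nfya, a subunit of the factor that binds the Y box, by 0.41 (adjusted p = 0.0381). Markers of macrophages and endothelial cells were lower on the same arrays, as given above. Whether that bears on these 3 falls was not tested.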

How the data were processed

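Total RNA of 8 cultures of primary hepatocytes was biotin-labelled and hybridised to expression arrays, 1 array a sample, 4 samples a genotype. The deposited table holds log2 expression values (41345 rows). The values were made by the authors with RMA and the oligo package, per the submitters' processing notes; the version is not given in the sources used here. The deposited log2 values were used as given, with array medians of 3.76 to 3.88, so the arrays do not share 1 distribution. Arrays have no read depth, and 4 arrays per group limit the precision.

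Rows were named from the platform annotation (23521 with 1 symbol, 1814 with several, 16010 with none), and only rows with 1 symbol were used. The row of highest mean was kept for a gene (each member had 1), and genes were tested above the 40th percentile of row means (3.32). The 2 genotypes were tested against each other in limma 3.58.1 under R 4.3.3 (two-sided, Benjamini-Hochberg over 15380 genes), and a simulated data set with known changes was used to check the fit. Pairs of related genes, chosen after their values were seen, were compared by exact permutation over 70 arrangements in Python 3.11.15.

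The members and lists were chosen with earlier results of these data known. The named genes are all members, Cdkn2a, pathway genes past the threshold (at most 8 a list), genes between H2-DMa and H2-Eb1 and the leading cell type markers. Cxcl10 falls outside this rule and was chosen after its value was seen. Alternatives were other filters, row rules, normalizations, variance models, array weights, thresholds, wider groups of genes, the replicate number as a block, leaving out each array and, added after seeing the data, leaving out genes below the filter in 1 genotype.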

Additional observations from a re-analysis of the deposited data

Results flagged for a closer look

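Over the 35 members with a row, 70 sets of 4 arrays were examined for a value far from the other 3, by Dixon's ratio of gap to range at its 95% critical value, and 7 sets held one. Chance gives about 1 in 20. Irgm2 in wild type replicate 4 was at 4.73, with the others at 5.47 to 5.50 (ratio 0.961). Gbp6 in knockout replicate 1 was at 3.60, with the others at 2.38 to 2.47 (0.921). Gbp7 in the same array was at 2.85, with the others at 3.38 to 3.46 (0.869), and H2-Ab1 in that array was at 7.28, with the others at 7.55 to 7.60 (0.835). Tap1 in knockout replicate 2 was at 5.62, with the others at 5.88 to 5.90 (0.924). Psmb8 in knockout replicate 3 was at 4.93, with the others at 5.27 to 5.33 (0.831). Ifit1 in wild type replicate 4 was at 3.96, beside 3.91 in the other wild type arrays (0.872).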

How the results depend on the processing

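H2-Ab1, Iigp1 and Oasl1 kept their direction and their call in each of 17 alternative fits, with adjusted p-values of up to 0.0130, 0.0180 and 0.0175. The members called lower numbered 0, but 1 with the 60th percentile filter (Irf1, adjusted p = 0.0408), 1 with the replicate block (Igtp, adjusted p = 0.0232), 0 to 1 when an array was left out (Igtp, without wild type replicate 4) and 5 at an unadjusted p under 0.05. The members called higher numbered 2 when a change of 1.5-fold was required. Stat2 was called with the 60th percentile filter, quantile normalization, an intensity trend, array weights, the replicate block or without knockout replicate 4 (adjusted p = 0.00386 to 0.0409). All genes called numbered 4137 at an unadjusted p under 0.05, 1071 at an adjusted p under 0.01 and 895 with a 1.5-fold change. The median change of the type I genes was -0.0934 to 0.102 when an array was left out and 0.124 with the wider group, and that of the gamma-type genes was 0.0026 with the 60th percentile filter, with the wider group and, chosen after seeing the data, without genes below the filter in 1 genotype, and -0.192 to -0.0963 when an array was left out. The causes were not tested. Same-numbered arrays of the genotypes correlated in their deviations at 0.0613, 0.0196, 0.263 and 0.207. Differently numbered arrays of the genotypes correlated at -0.291 to 0.151. The labels state no pairing, so the main fit does not pair the samples, but whether the numbers pair them was not settled. With the replicate block 2215 genes were called, against 2119 without it. Genes near the filter, such as Mx2, Gbp7 and Oasl2, are limited by low signal.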
